A study of Mus musculus with 8 samples.

Results

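The cytosolic ribosomal protein genes were described in cultured mouse keratinocytes that lacked type I keratins and in wild-type keratinocytes. Members were taken by symbol alone: Rpl or Rps followed by a digit, or Rpsa, Rplp0, Rplp1 or Rplp2, without the Rps6k kinases and without symbols marked as pseudogenes. The rule found 66 of the 16593 genes with a probe on the array, measured by 84 probes. The RefSeq gene annotation holds 95 symbols that fit the rule, so the family was measured only in part. Rpl11 and Rps18, for example, were not among the members. By role they were 23 proteins of the small subunit, 32 of the large subunit, 3 of the stalk and 6 paralogs. The other 2, Rps19bp1 and Rps23rg1, carry a matching symbol but are not ribosomal proteins: Rps19bp1 binds Rps19 and Rps23rg1 is a retroposed gene. The label therefore fitted 64 of the 66 members.

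The cells were isolated from the skin of embryos (E18.5) and grown to confluency, and all samples carry the strain label C57Bl6. The KO group held 4 arrays of keratinocytes with the genotype type I keratin KO, and the wild-type group held 4 arrays of keratinocytes labelled wild type. In both genotypes the arrays were numbered 1, 2, 3 and 1.1. Total RNA was hybridised to Illumina bead arrays after biotin labelling, and the values are linear intensities without further unit. The labels do not say which type I keratin genes the deletion covered, whether the samples came from separate embryos, or whether cells were pooled, so the tests measure the spread between these samples, which may be technical.

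A cytosolic ribosome is built from ribosomal RNA and about one copy of each ribosomal protein. The small subunit reads the mRNA, the large subunit joins the amino acids, and the stalk of the large subunit recruits the factors that drive translation. Most cells transcribe these genes at high and balanced levels. Their mRNAs commonly begin with a run of pyrimidines, the terminal oligopyrimidine motif, through which mTOR signalling controls their translation rather than their amount. In mice, reduced Rps19 or Rps20 darkens the skin through p53 in keratinocytes, which raises Kit ligand for melanocytes.

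The arrays carried the labelled genotypes. Krt14 lay between -2.90 and 9.28 on KO arrays and between 17836 and 19131 on wild-type arrays, and Krt17 and Krt16 were at most 1.76 on KO arrays. Of 13 keratinocyte markers with a probe, 12 were above the background limit, an intensity of 6.30, on all 8 arrays, and the exception was Krt14. Without Krt14, the other 12 summed to 43599 to 54283 on KO arrays and 53670 to 57383 on wild-type arrays. Of these, 9 were below 0 in KO minus wild type, with a median of -0.20. The 7 melanocyte markers summed to 369 to 1635 on KO arrays and 931 to 3498 on wild-type arrays. All 7 were below 0 in KO minus wild type, with a median of -0.59. Limma called none of them, against 0.708% of all genes. It gave 1, lower in KO cells, an unadjusted p under 0.05, 14.3% against 17.1% of all genes. The 11 fibroblast markers summed to 366 to 747 on KO arrays and 187 to 1353 on wild-type arrays. The 7 leukocyte markers summed to at most 29.9 on KO arrays and 33.5 on wild-type arrays, with 4 of them above the limit on no array, and the 6 endothelial markers to at most 47.9 on KO arrays and 24.4 on wild-type arrays, with 1 above it on no array. The part of other cells in the ribosomal protein values was not tested, and in bulk RNA fewer cells of a type and less RNA per cell cannot be told apart. KO 1.1 is labelled as a repeat of KO 1 but differed from KO 3 by an SD of only 0.21 in log2 over kept probes, against 0.64 from KO 1. KO 3 was therefore averaged with KO 1.1, and wild-type 1 with wild-type 1.1, which left 3 replicates in each genotype.

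The starts of the genes are shown first because the pyrimidine run is the sequence feature that the family is known for. Of the 66 members, 57 matched an entry in the promoter table of RefSeq (GRCm38.p6), and Rpl17, Rpl21, Rpl23a, Rpl29, Rpl3, Rpl30, Rplp1, Rps14 and Rps20 did not. Each printed stretch runs 5′ to 3′ on the gene's strand, from 10 bases before the listed start to 20 bases from it, and capitals mark the unbroken run of C and T that begins at the listed start with a C. The first 8 genes carry such a run, and Rpl24, Rpl22l1 and both listed starts of Rpl22, genes that the results turn on, do not.
Rps6 (chr4:86857348-86857377, minus strand): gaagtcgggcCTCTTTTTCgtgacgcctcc
Rpl35 (chr2:39005112-39005141, minus strand): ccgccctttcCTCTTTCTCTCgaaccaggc
Rpl28 (chr7:4792955-4792984, plus strand): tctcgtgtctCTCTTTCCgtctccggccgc
Rpl38 (chr11:114668570-114668599, plus strand): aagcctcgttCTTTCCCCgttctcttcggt
Rps10 (chr17:27635225-27635254, minus strand): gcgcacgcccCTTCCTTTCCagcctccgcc
Rps27 (chr3:90213629-90213658, minus strand): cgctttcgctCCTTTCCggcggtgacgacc
Rpl35a (chr16:33056472-33056501, plus strand): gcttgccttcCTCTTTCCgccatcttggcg
Rplp2 (chr7:141447641-141447670, plus strand): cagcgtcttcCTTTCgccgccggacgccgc
Rpl24 (chr16:55966265-55966294, plus strand): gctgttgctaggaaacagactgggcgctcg
Rpl22l1 (chr3:28805498-28805527, plus strand): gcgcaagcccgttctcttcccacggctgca
Rpl22, upstream start (chr4:152324426-152324455, plus strand): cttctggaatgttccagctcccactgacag
Rpl22, downstream start (chr4:152325716-152325745, plus strand): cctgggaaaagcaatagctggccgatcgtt

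A C followed by at least 4 pyrimidines at the listed start was found in 11 of the 57 members, 19.3%, against 3.01% of the 27025 genes in the table. The listed start may lie some bases away from the start used in these cells: in Rpl22l1 the run ttctcttccc lies just after it and was not counted. The letters CCGGAAG, the core bound by ETS factors, stood on either strand within the 300-base window of 22 members, 38.6%, against 9.93% of all genes. The letters AAGATGGC, a YY1-type motif, stood on either strand in 6 members, 10.5%, against 3.19% of all genes. These were Rpl13a, Rpl22, Rpl35a, Rpl7l1, Rps15a and Rps27. The motifs can overlap each other, and a match describes these letters only.

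No ribosomal protein gene passed the test between KO and wild-type cells, and 53 of the 60 tested members had a log2 difference within 0.2 of 0. These 60 are 59 ribosomal protein genes and Rps19bp1. Of the 66 members, 60 were bright enough to be tested, and 59 of these were above the limit on all 8 arrays. The untested 6 were Rpl17, Rpl6, Rplp2, Rpl39l, Rpl3l and Rps23rg1, each above the limit on at most 1 array, with a highest intensity of 6.79 for Rpl6 on wild-type 3. Limma with Benjamini-Hochberg adjustment over all 9881 genes tested called 0 of the 60 members at an adjusted p under 0.05. Of all genes it called 0.708%, 0.293% higher and 0.415% lower in KO cells. At so low a share, 0 called of 60 does not set the members apart. At an unadjusted p under 0.05, limma counted 2 members, Rpl22 and Rpl24, or 3.33%, against 17.1% of all genes. Rpl24 was the 1 higher in KO cells, where 8.45% of all genes were, and Rpl22 the 1 lower, where 8.68% were. The log2 difference, KO minus wild type, was below 0 for 28 members and above 0 for 32. That is 46.7% below 0, against 47.5% of all genes. The median difference was 0.0076 over members and 0.018 over all genes. Its sign was not settled, because it was -0.026 without wild-type replicate 2 and -0.024 with the arrays averaged as labelled.

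The differences are described here by their size, beside the same shares over all genes. The absolute log2 difference was under 0.1 for 34 of 60 members, 56.7%, against 26.3% of all genes, and under 0.2 for 53 members, 88.3%, against 48.0%. Only Rpl22 exceeded 0.5. The median absolute difference was 0.0862 over members and 0.210 over all genes. The replicates also lay closer together, with a median residual SD of 0.129 in log2 for members and 0.233 for all genes. A standard error of 0.149 was the median for members, so a difference of about 0.2 was of the order of its error for a typical member.

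**Figure D1:**
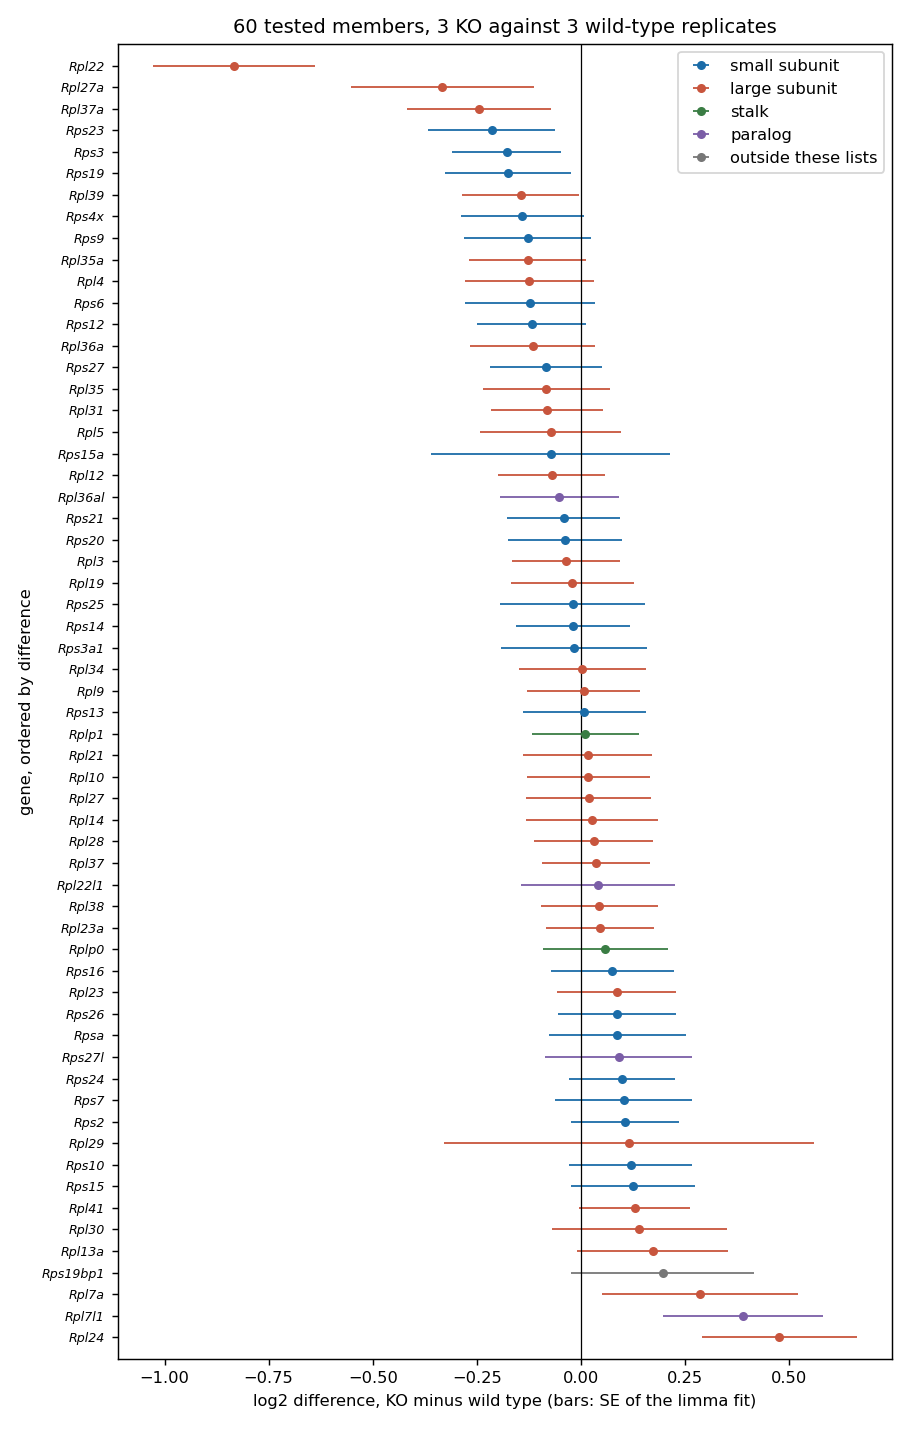
Log2 difference, KO minus wild type, of each of the 60 tested members, 59 ribosomal protein genes and Rps19bp1, with its limma standard error (3 KO and 3 wild-type replicates), ordered by size and coloured by role. All points but Rpl22 lie within 0.5 of 0, and 53 lie within 0.2.

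Levels of the family were alike on all replicates. The median log2 level over the 60 members came to 12.36, 12.37 and 12.36 for KO replicates 1, 2 and 3, against 12.42, 12.41 and 12.49 for wild-type replicates 1, 2 and 3. The 3 KO medians were all lower than the 3 wild-type medians, by at most 0.13, while the mean log2 levels, 11.40, 11.47 and 11.41 in KO cells and 11.42, 11.41 and 11.47 in wild-type cells, overlapped. Between repeat arrays, the log2 differences of the members had an SD of 0.134 to 0.139. Between arrays of one genotype that are not repeats it was 0.196 to 0.309, and between KO and wild-type arrays it was 0.209 to 0.325. The ranges for members across genotypes and within a genotype overlapped. Without Rpl29, the SD was 0.196 to 0.260 within a genotype and 0.209 to 0.299 across genotypes, so the upper end was higher across genotypes. Over all tested genes the same SD was 0.198 to 0.207 between repeats, 0.425 to 0.661 within a genotype and 0.577 to 0.727 across genotypes. The last 2 ranges overlapped as well, so overlap was not particular to the members.

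Many members were among the brightest genes. Of the 109 tested genes with a mean intensity above 5000, 30 were members, 27.5%. Their median absolute difference was 0.0783, against 0.134 for the other 79 genes at that height, and their median residual SD was 0.0898 against 0.143. The 30 members at or under 5000 had a median absolute difference of 0.118. At the top of the scale the deposited values came from a shared ladder of rank values, with a median step of 0.011 in log2 above 5000. Rplp1, for example, took 19749 or 20141 on 7 of 8 arrays. How far saturation and normalization narrowed the differences of the brightest members was not tested.

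**Figure D2:**
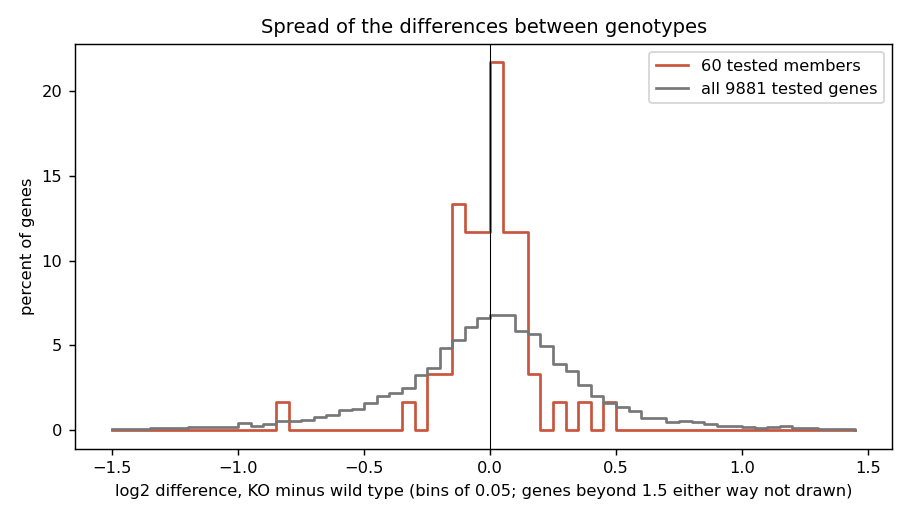
Distribution of the log2 difference, KO minus wild type, as the percent of the 60 tested members (red) and of all 9881 tested genes (grey) in bins of 0.05. The members crowd around 0, with 56.7% inside 0.1 against 26.3% of all genes.

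The small subunit genes showed no common shift. Of the 23 tested, 14 were below 0 and 9 above, with a median of -0.020 and a range from -0.21 for Rps23 to 0.13 for Rps15, which sits near the decoding site. Rps3, at the mRNA entry channel, measured 6647, 6835, 7244 and 7154 on KO arrays 1, 2, 3 and 1.1, against 7594, 7748, 7748 and 8224 on wild-type arrays 1, 2, 3 and 1.1. Every KO array lay below every wild-type array, yet the difference was small, -0.18 ± 0.13 (SE), and the adjusted p by limma was 0.538. A dimmer probe for Rps3 gave 1295, 1641, 1968 and 1705 on KO arrays, against 1966, 1972, 2302 and 1893 on wild-type arrays. Its difference was -0.39, the same sign, and its groups overlapped at KO 3. Rps12, another small subunit protein, averaged 14066 ± 550 in KO cells and 15258 ± 350 in wild-type cells (SD, n = 3 each), a difference of -0.12 whose 8 single arrays overlapped.

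Rps24, a small subunit protein mutated in Diamond-Blackfan anaemia in humans, differed in the other direction. Its brighter probe read 13425, 13003, 12294 and 14368 on KO arrays, against 12294, 12399, 12399 and 12294 on wild-type arrays, a difference of 0.098 ± 0.13 (SE). The 3 KO replicates were above the 3 wild-type replicates, but KO 3 alone equalled the lowest wild-type array. Its second probe read 565, 633, 590 and 560 on KO arrays, against 382, 365, 571 and 387 on wild-type arrays, a difference of 0.44 with wild-type 3 inside the KO range. Rps2 averaged 14219 ± 458 in KO cells and 13211 ± 190 in wild-type cells (SD, n = 3 each), a difference of 0.11.

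The genes tied to dark skin in mice did not pass the test. Rps19 measured 9479, 7976, 9345 and 7523 on KO arrays, against 9193, 10832, 9345 and 8822 on wild-type arrays. The genotypes overlapped, and the difference was -0.17 ± 0.15 (SE) with an adjusted p by limma of 0.610. The repeat arrays KO 3 and KO 1.1 differed by 0.31 in log2 for this gene, more than the genotypes did. Rps20 measured 18312, 17836, 19749 and 19749 on KO arrays, against 17492, 19749, 19749 and 18312 on wild-type arrays, a difference of -0.038 ± 0.14 (SE) at the top of the scale. In the list of dark skin and Diamond-Blackfan genes, 10 were tested, 5 were below 0 and 5 above, with a median of -0.0096. None had an unadjusted p under 0.05 by limma, against 17.1% of all genes, and so short a list would hold few at that share.

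Rps6, the small subunit protein that S6 kinases phosphorylate, averaged 3992 ± 495 in KO cells and 4335 ± 377 in wild-type cells (SD, n = 3 each), a difference of -0.12 ± 0.16 (SE). Rps4x, encoded on the X chromosome, differed by -0.14 ± 0.15, and Rps27, a zinc-finger protein of the small subunit, by -0.083 ± 0.13. Rpsa, also known as a laminin receptor, was dim here, at 11.7 to 22.2 on KO arrays and 8.31 to 16.4 on wild-type arrays, and its difference was 0.088 ± 0.17. Rps23 was likewise read by a dim probe, at 18.1 to 27.6 on KO arrays and 26.6 to 35.9 on wild-type arrays, with a difference of -0.21 ± 0.15. For dim probes such as these, the difference of log2(intensity + 16) understates a change in intensity.

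The large subunit held the members with the lowest unadjusted p values, Rpl22 and Rpl24. Of its 30 tested genes, 13 were below 0 and 17 above, with a median of 0.011. Rpl22, which binds RNA and is dispensable for the ribosome in mice, measured 252, 307, 304 and 319 on KO arrays, against 613, 417, 642 and 489 on wild-type arrays. Every KO array was below every wild-type array, with the highest KO value at 319 and the lowest wild-type value at 417. The means were 290 ± 33.2 in KO cells and 536 ± 113 in wild-type cells (SD, n = 3 each), and the difference was -0.83 ± 0.19 (SE). Limma gave an unadjusted p of 0.00326 and an adjusted p of 0.103, which missed the threshold. With array quality weights, a setting that called 940 of all 9881 genes, the adjusted p by limma was 0.0278. Over the 17 alternatives on the log2 scale it lay between 0.0278 and 0.336 with a difference of -1.0 to -0.70. On normal scores of ranks, whose differences have another scale, the adjusted p was 0.170.

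Rpl22l1, the paralog that Rpl22 represses in mice, showed no resolved difference. It measured 112, 143, 152 and 161 on KO arrays, against 142, 137, 109 and 166 on wild-type arrays, and the groups overlapped throughout. The difference was 0.041 ± 0.19 (SE), with an adjusted p of 0.939 by limma.

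Rpl24, a late-joining large subunit protein whose mutation gives the Belly spot and tail mouse, was the member with the largest positive difference. It measured 591, 807, 551 and 550 on KO arrays, against 406, 451, 509 and 420 on wild-type arrays. All KO arrays were above all wild-type arrays, with KO 2 far above the other KO arrays. The difference was 0.48 ± 0.19 (SE), with an unadjusted p of 0.0366 and an adjusted p of 0.257 by limma. With array weights, which called 940 of all 9881 genes, the difference was 0.67 and the adjusted p by limma 0.0491. Over the 17 alternatives on the log2 scale the adjusted p lay between 0.0491 and 0.590. On normal scores of ranks it was 0.303.

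Besides these, the replicates of few members separated by genotype. The KO replicates did not overlap the wild-type replicates in 7 members, 11.7%, against 22.5% of all genes. Of these, 3 were higher in KO cells, Rpl24, Rps24 and Rps2, against 11.6% of all genes, and 4 were lower, Rpl22, Rps3, Rps12 and Rpl12, against 10.9%. Leaving out 1 replicate gave 11 to 17 such members, 18.3% to 28.3%, against 27.6% to 42.3% of all genes under the same settings. On all 8 single arrays the genotypes were apart in 4 members, Rpl24, Rpl22, Rps3 and Rpl12, or 6.67%, against 17.4% of all genes. Higher in KO cells was 1 member, against 8.46% of all genes, and 3 were lower, against 8.98%. Rpl12, near the stalk base, measured 7523, 7594, 7154 and 7594 on KO arrays, against 7868, 7868, 7710 and 8191 on wild-type arrays, a difference of -0.070 ± 0.13 (SE).

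Other large subunit genes with larger differences overlapped between genotypes. Rpl27a measured 447, 615, 821 and 743 on KO arrays, against 669, 714, 860 and 754 on wild-type arrays, a difference of -0.33 ± 0.22 (SE), with KO 1 the lowest array. Rpl37a, a zinc-binding protein, differed by -0.24 ± 0.17 and Rpl39, at the exit tunnel, by -0.14 ± 0.14. Rpl7a measured 137, 205, 110 and 145 on KO arrays, against 123, 99.3, 161 and 106 on wild-type arrays, a difference of 0.29 ± 0.24 whose repeat arrays KO 3 and KO 1.1 stood 0.35 apart. Rpl13a, often used as a reference gene, differed by 0.17 ± 0.18, Rpl30 by 0.14 ± 0.21 and Rpl41, a very short peptide, by 0.13 ± 0.13. Rpl30 changed sign under 1 of 17 alternatives on the log2 scale. None of these passed the test.

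**Figure D3:**
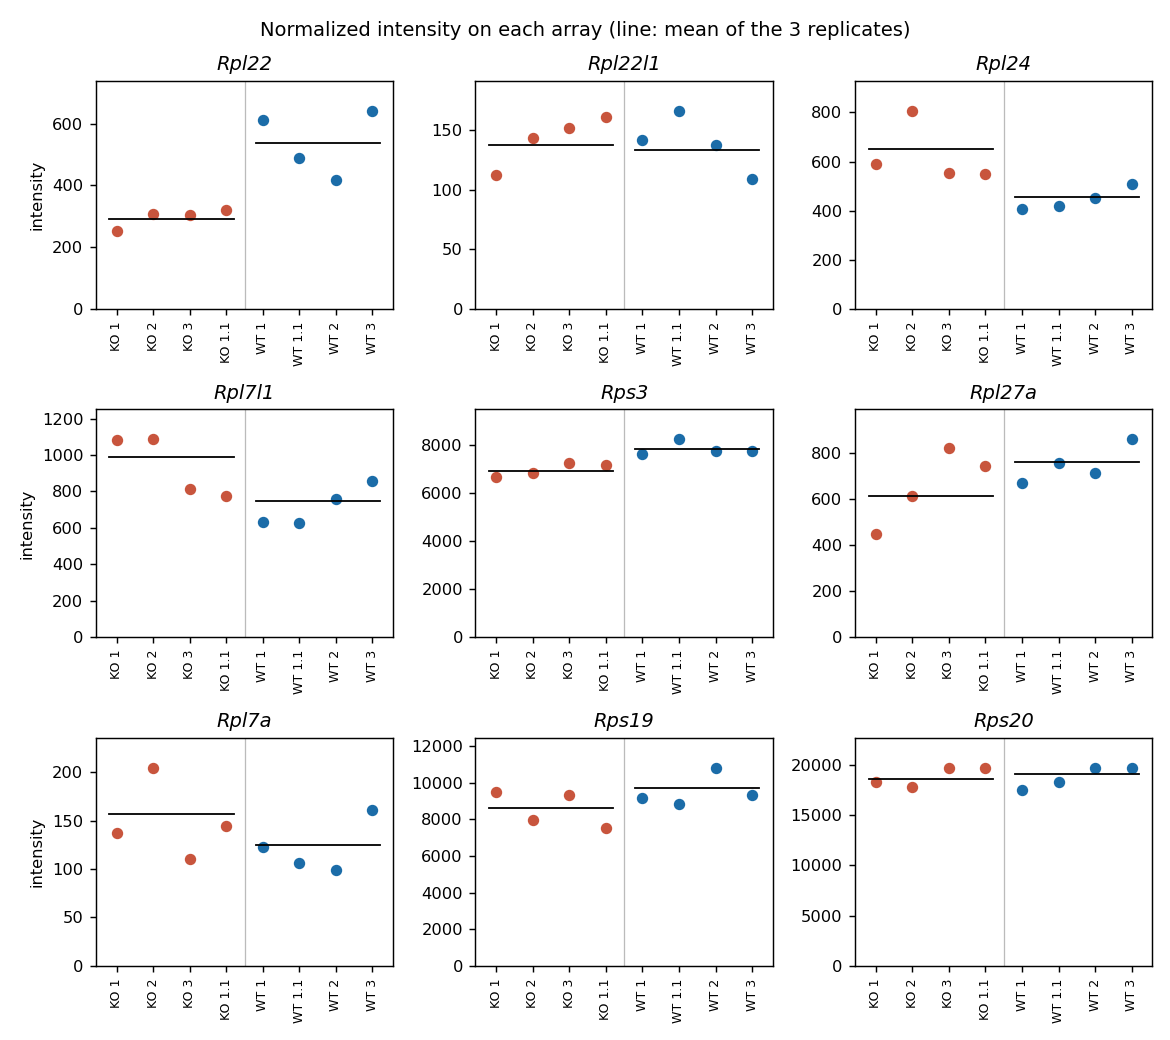
Deposited intensity (linear axes from 0) of 9 ribosomal protein genes on each array, KO arrays in red left of wild-type arrays in blue, with a line at the mean of the 3 replicates of each genotype. All KO arrays lie below all wild-type arrays for Rpl22 and Rps3 and above them for Rpl24, and the genotypes overlap for Rpl22l1, Rpl7l1, Rpl27a, Rpl7a, Rps19 and Rps20.

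Rpl5, which with 5S RNA binds the p53 regulator Mdm2, averaged 6603 ± 859 in KO cells and 6947 ± 906 in wild-type cells (SD, n = 3 each), a difference of -0.073 ± 0.17 (SE). Of 7 tested p53-sensing members, Rps3 among them, 4 were below 0 and 3 above, with a median of -0.018. Rpl38, whose loss in the Tail-short mouse alters Hox mRNA translation, averaged 15373 ± 1163 in KO cells and 14896 ± 924 in wild-type cells, a difference of 0.044 ± 0.14. The stalk genes were as close by their brightest probes. Rplp0, which anchors the stalk, averaged 1101 ± 94.6 in KO cells and 1057 ± 103 in wild-type cells (SD, n = 3 each), a difference of 0.059 ± 0.15. Rplp1 differed by 0.011 ± 0.13. A dimmer Rplp0 probe read 90.2, 69.9, 54.3 and 57.6 on KO arrays, against 35.3, 64.9, 43.9 and 43.3 on wild-type arrays. Its difference was 0.43, with wild-type 2 inside the KO range.

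Of the paralogs, 4 were tested, 1 below 0 and 3 above, and Rpl7l1 had the largest difference. This relative of Rpl7 measured 1081, 1087, 812 and 774 on KO arrays, against 631, 757, 857 and 626 on wild-type arrays. KO 1 and KO 2 were above all wild-type arrays and wild-type 3 lay above KO 3, so the groups overlapped. The difference was 0.39 ± 0.19 (SE), with an adjusted p of 0.354 by limma. A dimmer Rpl7l1 probe gave only 0.094. With the mean of both probes the difference was 0.24 and the adjusted p by limma 0.558. Rps27l, a p53 target in human cells, differed by 0.091 ± 0.18, while its relative Rps27 differed by -0.083. Rpl36al differed by -0.052 ± 0.14, while Rpl36a differed by -0.12 ± 0.15. Rps19bp1, which binds Rps19 and is not a ribosomal protein, differed by 0.20 ± 0.22.

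Agreement between probes could be read for 13 members with several probes above the limit. All kept probes had one sign in 11 of them, while Rpl31 and Rpl23 held both signs. For Rpl31, a large subunit protein near the exit tunnel, the brighter probe gave -0.081 and the dimmer probe 0.13. For Rpl23, another large subunit protein, the 4 probes gave 0.086, 0.37, -0.063 and 0.45. Near-identical pseudogene copies of ribosomal protein genes are common in the mouse genome, so a probe may read more than its named gene.

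Rpl29, a large subunit protein also described as a heparin-binding protein, split the arrays across the genotypes. Its brighter probe measured 4189, 3864, 2038 and 2162 on KO arrays, against 2013, 5868, 2212 and 2091 on wild-type arrays. Its dimmer probe measured 532, 635, 20.6 and 16.1 on KO arrays, against 16.3, 1222, 26.5 and 13.6 on wild-type arrays. Both probes were high on KO 1, KO 2 and wild-type 2 and low on the other 5 arrays. The genotype difference of the brighter probe was 0.12 ± 0.45 (SE), the widest error among the members described here, and its sign was negative under 5 of 17 alternatives on the log2 scale.

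**Figure D4:**
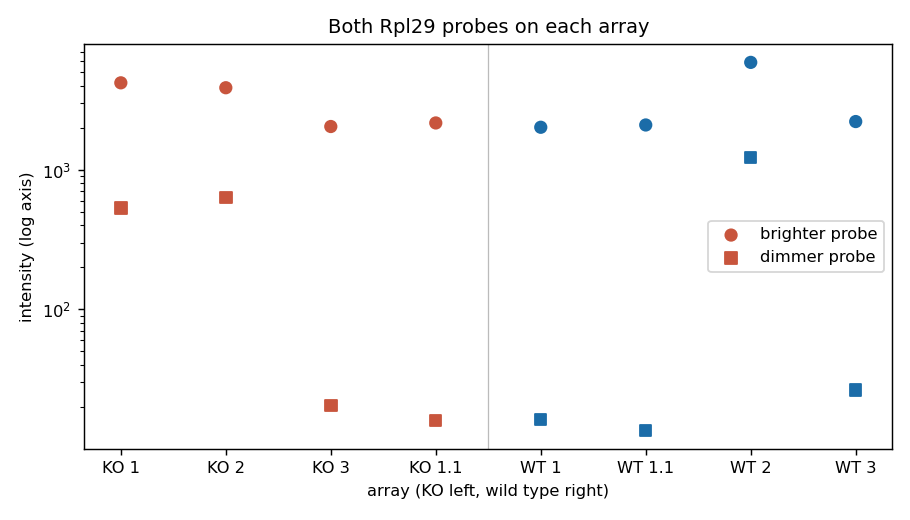
Intensity on a log axis of both Rpl29 probes on the 8 arrays, KO arrays left of wild-type arrays. Both probes are high on KO 1, KO 2 and wild-type 2, and the dimmer probe lies at 13.6 to 26.5 on the other 5 arrays.

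Probes with the pattern most like the dimmer Rpl29 probe were then ranked by Pearson's r over the 8 arrays, a choice made after the values were seen. Of the 13552 ranked probes, the 20 most alike had r of at least 0.92, and 8 of these lay on chromosome 9, where 5.59% of the ranked probes lie. They were the brighter Rpl29 probe and probes for Epm2aip1, Nme6, Lars2, Aste1, Csrnp1 and Mtfmt, with 2 for Nme6. Epm2aip1 had an r of 0.99 and measured 93.5, 78.7, 5.08 and 1.39 on KO arrays, against 5.53, 122, 13.1 and 6.34 on wild-type arrays. The arrays share their labels of strain and cell type, and the origin of the split was not tested.

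None of the genes in the groups around the ribosome passed the test. Only 0.708% of all genes did, so lists of this size would hold few called genes in any case. Of 71 tested mitochondrial ribosomal protein genes, 20 were below 0 and 51 above, with a median of 0.079, and limma gave an unadjusted p under 0.05 to 6 higher and 1 lower in KO cells, 9.86% against 17.1% of all genes. Mrpl38, a protein of the mitochondrial large subunit, measured 1319, 945, 897 and 855 on KO arrays, against 579, 496, 714 and 625 on wild-type arrays, a difference of 0.77 ± 0.21 (SE) with an adjusted p of 0.134 by limma. Mrps6, of the mitochondrial small subunit, differed by 0.60 ± 0.19.

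Ribosome biogenesis factors, which process ribosomal RNA and assemble subunits, were below 0 in 25 of 90 and above 0 in 65, with a median of 0.15, and 2 higher and 1 lower had an unadjusted p under 0.05, 3.33% against 17.1% of all genes. Across these factors the median log2 level lay at 9.41 (KO 1), 9.20 (KO 2) and 8.82 (KO 3) in the mutant, against 8.77, 8.85 and 9.12 in wild-type replicates 1, 2 and 3. KO 1 and KO 2 were above all wild-type replicates and KO 3 was not. Utp6, of the small subunit processome, differed by -0.79 ± 0.15 (SE) with an adjusted p of 0.0674 by limma, and Rrp9, which binds U3 RNA, by 0.59 ± 0.31. In the RNA polymerase I machinery, 3 of 14 were below 0 and 11 above, with a median of 0.20, led by Polr1e at 0.67 ± 0.25 and Taf1d at 0.61 ± 0.25. By limma 2 of the 14, both higher, had an unadjusted p under 0.05, 14.3% against 17.1% of all genes. The median log2 level of this list was 9.88, 9.625 and 9.28 in KO replicates 1, 2 and 3. In wild-type replicates 1, 2 and 3 it was 9.27, 9.08 and 9.629, so the genotypes overlapped.

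Translation factors did not pass the test either, where 0.708% of all genes did. The elongation factor list also holds Eef2k, which is a kinase and not an elongation factor. Of its 8 tested genes, 6 were below 0 and 2 above, with a median of -0.085. Limma gave 2 of these, Eef2k and Eef2, both lower in KO cells, an unadjusted p under 0.05, 25.0% against 17.1% of all genes. Of the 2, only Eef2 is an elongation factor. Eef2k, the kinase that inhibits elongation factor Eef2, measured 51.3, 47.2, 69.3 and 69.2 on KO arrays, against 198, 174, 121 and 220 on wild-type arrays, with no overlap. The difference was -1.34 ± 0.22 (SE) with an adjusted p of 0.0547 by limma, which missed the threshold. Eef2, the factor that moves the ribosome along the mRNA, measured 225, 153, 400 and 340 on KO arrays, against 482, 503, 476 and 473 on wild-type arrays, a difference of -1.0 ± 0.29 with an adjusted p of 0.140. Of 28 initiation factor genes, 12 were below 0 and 16 above, with a median of 0.045. An unadjusted p under 0.05 by limma was found for 1 higher and 4 lower in KO cells, 17.9% against 17.1% of all genes. Eif2s2, of the factor that delivers the initiator tRNA, differed by -0.81 ± 0.29, and Eif4b, a helper of the eIF4A helicase, by -0.77 ± 0.30.

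A further list was chosen as other carriers of the pyrimidine motif, and it shares genes with the translation factor lists. The starts of its genes are not shown here. Of its 26 tested genes, 20 were below 0 and 6 above, with a median of -0.084, and Eef2 and Eif4b were again the largest. Among them 2, both lower in KO cells, had an unadjusted p under 0.05 by limma, 7.69% against 17.1% of all genes. The 10 tested ribosomal protein genes with the run at the listed start had a median of -0.057, against 0.0076 for the 42 tested members of the promoter table without it. This split follows the listed start only, so genes with a run nearby, such as Rpl22l1, fall among those without it. The difference between the medians was not tested. Fau, a small subunit protein made as a ubiquitin-like fusion, differed by -0.084 ± 0.13 (SE). Of 28 growth regulators of ribosome production, 18 were below 0 and 10 above, with a median of -0.097. Limma gave an unadjusted p under 0.05 to 1 higher and 5 lower in KO cells, 21.4% against 17.1% of all genes. Mycl, a Myc family member, differed by -1.44 ± 0.29 with an adjusted p of 0.0773 by limma, and Pdcd4, an inhibitor of eIF4A, by -0.90 ± 0.33. The snoRNA hosts Eif4a2 and Snhg11 differed by -0.062 and 0.087.

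**Figure D5:**
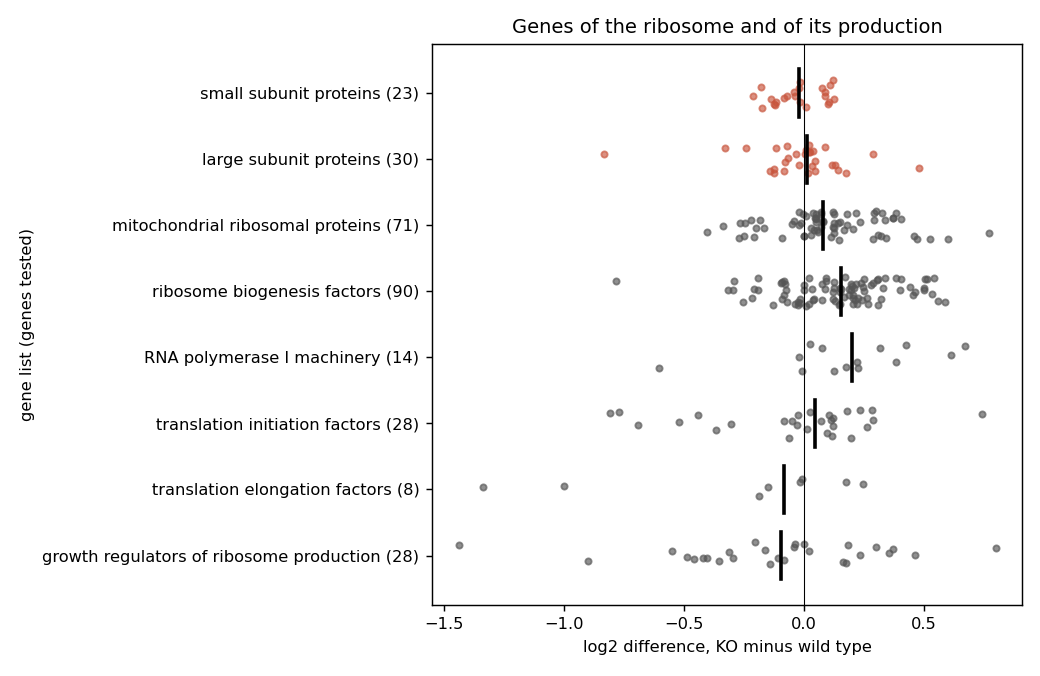
Log2 difference, KO minus wild type, of the tested genes in each list, with a bar at the median of each list and the number of genes tested in brackets. Ribosomal protein genes of both subunits cluster around 0. Mitochondrial ribosomal protein and biogenesis genes have medians of 0.079 and 0.15, and the elongation factor list, which includes the kinase Eef2k, has -0.085. The replicate medians of the mitochondrial and biogenesis lists overlapped between genotypes.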

How the data were processed

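The authors deposited 1 linear intensity per probe and array for 25697 probes on 8 arrays. The steps behind them are not given in the sources used here. Of the values, 27.1% to 27.3% per array were negative, and all arrays shared their 75th percentile and maximum while medians ran from 8.04 to 8.12. They were therefore taken as background-subtracted and normalized between arrays already, by a method the labels do not name. A further deposited table had 16 value columns that matched no sample label and was not used. Probe symbols came from the platform annotation.

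Values were taken as log2(deposited intensity + 16). The limit of 6.30 left 5% of the negative values, mirrored around 0, above it, and probes above it on at least 3 arrays were kept (14453). The probe with the highest mean log2 stood for each gene. Arrays KO 3 and KO 1.1, and wild-type 1 and 1.1, were averaged. Genes were compared with limma 3.58.1 in R 4.3.3 (lmFit, eBayes), 3 against 3 replicates, with Benjamini-Hochberg adjustment over 9881 genes. Adjusted p values are limma's. The procedure was tested on simulated data whose planted changes were larger than the difference of any member, so that test does not cover differences of the members' size. Precision is limited by the number of arrays.

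The members and lists were chosen with earlier results of these data known. Named members were the 8 with the largest rise and the 8 with the largest fall, all paralogs, and genes with known roles. Members whose replicates did not overlap, and Rpl29, Rpl31 and Rpl23, were named after their values were seen. In other lists the 2 with the largest change were named. The labels do not say whether equal replicate numbers pair the samples. Deviations of same-numbered samples correlated at 0.056, 0.025 and -0.35, and those of other pairs at -0.32 to 0.27. Taken from the mean of only 3 replicates, these deviations cannot decide the question, and the main fit used no block. Alternatives covered array averaging, a replicate block, offset, filter, probe choice, rank scores, centring, array weights, a looser threshold and leaving out replicates.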

Additional observations from a re-analysis of the deposited data

How the results depend on the processing

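Of 522 values for 29 named members across alternatives, 501 kept their direction and their side of the threshold. Rpl22 and Rpl24 passed with array weights (adjusted p by limma 0.0278 and 0.0491). In that setting 2 of 60 members and 940 of all 9881 genes were called, and 0 members were called under every other alternative. The other 19 values, in 10 members that never passed the test, changed sign. With arrays averaged as labelled Rpl29 was -0.056, with normal scores Rplp1 was -0.0012, and with array weights Rpl22l1 was -0.043, Rpl36al 0.0022 and Rplp1 -0.0018. Leaving out one replicate gave -0.15 to 0.60 for Rpl29, -0.082 to 0.16 for Rpl22l1, -0.0085 to 0.30 for Rpl30, -0.089 to 0.022 for Rpl36al, -0.0008 to 0.11 for Rpl38, -0.18 to 0.013 for Rpl5, -0.018 to 0.13 for Rplp0, -0.012 to 0.025 for Rplp1, -0.036 to 0.21 for Rps27l and -0.029 to 0.15 for Rpsa. The number of genes called over the whole table, 70, was 261 with the arrays averaged as labelled, 9 with normal scores of ranks, 940 with array weights and 299 at an adjusted p under 0.1. Leaving out one replicate gave 11, 9 and 264 without KO replicate 1, 2 or 3, and 5 and 8 without wild-type replicate 1 or 2. With the replicate number as a block, 21 genes and 0 members were called, and whether the numbers pair the samples is not known.

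The count of members below 0, 28 of 60, was 13 of 30 among members with a mean intensity under 5000, a setting chosen after seeing the data that tests fewer genes. The median of the members was -0.024 with arrays averaged as labelled, and -0.026 to 0.021 when one replicate was left out. Members whose replicates did not overlap numbered 15, 11 and 17 without KO replicate 1, 2 or 3, and 11, 12 and 14 without wild-type replicate 1, 2 or 3, against 7 with all; the shares of all genes in the same order were 31.7%, 29.1%, 42.3%, 27.6%, 31.0% and 35.7%, against 22.5% with all. At an unadjusted p under 0.05 there were 4 members with array weights (29.4% of all genes), 1 with the replicate block (14.0%), 5 without KO replicate 3 (23.0%) and 1 without KO replicate 2 (12.6%), wild-type replicate 1 (10.7%) or wild-type replicate 2 (12.9%). Intensity near the top of the scale and dim probes limit what could be resolved; the causes of these shifts were not tested.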
